A study of Mus musculus with 6 samples.

Results

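Transcripts of 7 genes for stefins and cystatins were followed in dental epithelial organoids (DEOs) grown in 4 media. The genes were Stfa1, Stfa2, Stfa3 and Stfa2l1, which encode stefin A proteins, and Cstb, Cst3 and Cst6, which encode cystatin B, cystatin C and cystatin E/M. They are 7 of 47360 gene symbols in the deposited table and were picked by symbol. Stfa2 was picked because it had the largest increase with dibenzazepine among longer transcripts, so the values of +ND and +N are given below as a description.

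Stefins and cystatins are small proteins that plug the active site of papain-like cysteine proteases such as the cathepsins. Stefin A and cystatin B (also called stefin B) stay inside the cell because they lack a signal peptide, while cystatin C and cystatin E/M are secreted. Stefin A is a component of the cornified envelope of stratified squamous epithelium, and the mouse carries several copies of its gene side by side. Mouse stefin A genes are also known from neutrophils. Cystatin E/M restrains cathepsins and legumain in skin and hair follicle, and cystatin B and cystatin C are made by most cell types.

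DEOs were derived from adult dental epithelial stem cells (aDESCs) of the apical bud of wild-type incisors of 9-week-old female C57BL/6J mice and were cultured in Matrigel for 14 days. Every medium held Wnt3a and R-spondin1, together with 100 µg per ml of EGF and 200 µg per ml of the BMP antagonist Noggin, over a basal medium common to all, and +N had neither DBZ nor FGF10. Dibenzazepine (DBZ), a γ-secretase inhibitor that blocks Notch activation, was present in +ND and +NFD, and FGF10, at 100 µg per ml, in +NF and +NFD. The DBZ dose was taken as 10 µM from the labels, although the study's sources differ on its unit. Media with Jagged1 were not analysed here, and the sources used here do not state how many animals each library came from.

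Each medium had 1 library, so a difference between media had no replicate check and carries no p-value. Values are the authors' FPKM, that is, fragments scaled to transcript length and library size. Read totals were not stated, and the value of a single fragment, read from the smallest steps between low FPKM, gave +ND 0.793 times the depth of +N, with 1.05 times in +NF and 1.07 times in +NFD. The approximate fragment numbers below come from the same steps in transcripts of similar length, and a level at 0 allows up to 3 fragments. Intervals are 95% exact limits that cover counting error only, and they include no spread between cultures. In a bulk library, a lower level from fewer cells of a type and from less RNA per cell cannot be told apart. Ratios were taken on a log2 scale after adding 1 to each FPKM, so that they come out too small for low genes, and a gene was compared where the higher library reached an FPKM of 1.

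The cultures held epithelial transcripts throughout. All 6 markers of epithelium, among them Krt5 and Krt14, passed the filter in every comparison. They summed to 19803 FPKM in +N, to 11036 in +ND, to 15671 in +NF and to 13144 in +NFD, so their sum, like Cstb and Cst3, was lower in the media with DBZ. Most of this sum came from Krt5 and Krt14, and the 6 markers did not move together. The FPKM ratio of +ND to +N was 0.437 for Krt14, 0.417 for Cdh1, 0.448 for Epcam and 0.757 for Krt5. It was 1.87 for Trp63 and 1.20 for Itgb4. The part of such shifts in the values of Cstb and Cst3 was not tested. Markers of other cells were also present. The summed level of 12 macrophage markers stood at 767 FPKM in +N, at 607 in +ND, at 549 in +NF and at 490 in +NFD, and that of 8 fibroblast markers at 169, 151, 106 and 434 FPKM in the same order. Most of the macrophage sum was Lyz2, at 528, 408, 373 and 288 FPKM, and the other markers did not all follow it. Of the 12 macrophage markers that passed in +ND relative to +N, 4 were higher and 8 lower. In +NFD relative to +NF, 11 passed, with 9 higher and 2 lower. Of 14 neutrophil markers, 5 (Ngp, Camp, Mpo, Elane and Retnlg) were at 0 in all 4 libraries, and Ly6g was at most 0.240 FPKM. The neutrophil list summed to between 80.6 and 603 FPKM, nearly all of it from Ltf, S100a8, S100a9 and Lcn2, which epithelium also expresses. Nrarp, a direct Notch target, was at 18.2 FPKM in +N and 9.12 in +NF but at 2.80 in +ND and 2.60 in +NFD. It was 1 of 7 listed Notch targets, and the others that passed the filter differed less. The FPKM ratio of +ND to +N was 0.154 for Nrarp, 0.477 for Hes1 and 0.338 for Notch3. That of +NFD to +NF was 0.285 for Nrarp, 0.734 for Hes1 and 0.571 for Notch3. Hey1 was under an FPKM of 1 in every library and highest in +NFD, at 0.754.

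The 4 stefin A genes lie together on chromosome 16 (GRCm38), in a cluster of 11 annotated stefin A loci. Stfa2l1 is at chr16:36156811-36161948 on the plus strand, Stfa1 at chr16:36277148-36285371 on the plus strand, Stfa2 at chr16:36403946-36408363 on the minus strand and Stfa3 at chr16:36450537-36455392 on the minus strand. The other members are single genes elsewhere. Cstb is at chr10:78425670-78427619 on the plus strand, Cst3 at chr2:148871722-148875692 on the minus strand and Cst6 at chr19:5344705-5349574 on the minus strand. Each of the 7 genes has 3 exons in its protein-coding transcripts. None overlaps another gene of the table.

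The stefin A copies are close in sequence, which bears on how surely a fragment belongs to one of them. Over the coding sequence, pairs of the 4 stefin A genes were between 73.1% and 96.4% identical, with Stfa2 and Stfa2l1 the closest pair. Stfa1 was 97.9% identical to BC100530, a copy of the cluster outside the 7 genes. Pairs of a cluster gene with Cstb, Cst3 or Cst6, and pairs among those 3, were between 39.1% and 62.2% identical. The first 90 coding bases of the 2 closest pairs are shown from GENCODE transcripts, with capitals at the bases that differ within a pair, since these bases are what separates the copies.
Stfa2: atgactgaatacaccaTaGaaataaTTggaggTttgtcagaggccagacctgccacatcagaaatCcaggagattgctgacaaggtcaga
Stfa2l1: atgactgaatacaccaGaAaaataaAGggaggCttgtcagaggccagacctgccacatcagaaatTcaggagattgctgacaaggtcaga
Stfa1: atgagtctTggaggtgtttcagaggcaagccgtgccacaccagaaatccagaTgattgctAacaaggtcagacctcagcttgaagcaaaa
BC100530: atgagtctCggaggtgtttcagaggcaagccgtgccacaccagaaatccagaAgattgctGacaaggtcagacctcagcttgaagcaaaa

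Stfa2 and Stfa2l1 differed at 11 of 309 coding bases, and Stfa1 and BC100530 at 6 of 291. Of the windows of 50 bases along the Stfa2 transcript, 14.7% also occurred in another gene of the family, in every case Stfa2l1. This share was 16.8% for Stfa2l1 and 26.9% for Stfa1, which shared windows with BC100530 and BC117090. It was 0 for Stfa3, Cstb, Cst3 and Cst6. The values of Stfa1, Stfa2 and Stfa2l1 are therefore uncertain to the extent that the authors' counting divided such fragments among copies.

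Promoter sequence was compared across the stefin A copies, several of which, Stfa2 and Stfa3 among them, were highest in +ND. RefSeq promoters (GRCm38.p6) were matched for 8 of the 11 cluster loci and for Cst3. Among runs of bases that at least 6 of these 8 cluster promoters share, 3 runs of 13 bases were the longest. The run ACCTTTAAAACCC is shown because it is the first of these in alphabetical order. Its first base lies between positions -36 and -32 in the 4 stefin A members, with the start as 0. Another, ACTCAGCATTTCC, began between -147 and -142, and the 4 members also share the 15 bases ATTATTGGCACAGAG from between -247 and -242. The 120 bases before the start are shown with ACCTTTAAAACCC in capitals, together with Cst3, which lacks it.
Stfa2l1 (chr16:36156691-36156810, plus strand): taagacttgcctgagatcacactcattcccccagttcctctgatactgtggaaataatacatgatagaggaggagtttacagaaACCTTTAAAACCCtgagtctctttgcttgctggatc
Stfa1 (chr16:36277028-36277147, plus strand): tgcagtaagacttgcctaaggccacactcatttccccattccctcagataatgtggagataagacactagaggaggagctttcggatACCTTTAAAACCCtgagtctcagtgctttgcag
Stfa2 (chr16:36408364-36408483, minus strand): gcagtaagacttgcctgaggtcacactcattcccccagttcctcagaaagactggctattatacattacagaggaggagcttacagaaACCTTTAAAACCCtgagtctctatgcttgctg
Stfa3 (chr16:36455393-36455512, minus strand): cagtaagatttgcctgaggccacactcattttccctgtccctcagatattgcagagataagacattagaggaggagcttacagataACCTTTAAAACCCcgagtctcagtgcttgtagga
Cst3 (chr2:148875513-148875632, minus strand): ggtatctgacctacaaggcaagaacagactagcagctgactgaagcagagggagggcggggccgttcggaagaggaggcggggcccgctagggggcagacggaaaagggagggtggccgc

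This run was chosen after the sequences were seen. On both strands it occurred in 9 of 32851 RefSeq promoters (0.0274%), and all 9 lay inside the stefin A cluster. Its holders include Stfa2l1 and Gm5483, which were near the detection limit in every library. In the 8 matched cluster promoters, 4 motifs were searched on both strands of the 300 bases around each start. The RBPJ motif TGGGAA, read by the Notch pathway, occurred in 0 of 8, against 25.6% of all promoters, and Cst3 held it at position -144. The AP-1 motif TGANTCA occurred in 1 of 8, in Stfa3 at position 29, against 7.81% of all promoters. The grainyhead-like motif AACCGGTT (0.146% of all promoters) and the TATA box TATAAA (13.6%) occurred in 0 of 8. Over the whole 300 bases, the promoters of Stfa2 and Stfa2l1 were 90.5% identical and the other pairs of the 4 members between 78.8% and 80.9%. A match, or its lack, describes these letters in this window and nothing more.

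Stfa2, a stefin A gene, was at 0.422 FPKM in +N, at 494 in +ND, at 0 in +NF and at 46.3 in +NFD. These levels correspond to about 4, 3523, 0 and 458 fragments. Stfa2 thus stood at 4 fragments or fewer in both media without DBZ and was plainly detected in both media with it, at a lower level where FGF10 was also present.

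Stfa3, its neighbour at the end of the cluster, was at 4.27 FPKM in +N, at 211 in +ND, at 2.46 in +NF and at 19.6 in +NFD. Unlike Stfa2 it was detected in every library, with about 30 and 17 fragments in +N and +NF. The order of the 4 media was the same for both genes. The neighbouring +N and +NF levels of Stfa3 were not separated by counting error, since the FPKM ratio of +NF to +N was 0.577 with an interval of 0.299 to 1.08.

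Stfa1 was at 0 FPKM in +N, at 2.79 in +ND, at 0 in +NF and at 0.139 in +NFD. Only the +ND library held more than the 3 fragments that a level at 0 allows, with about 32. BC100530, with which Stfa1 shares windows of sequence, held about 2629 fragments in +ND. Whether some of the 32 belong to that copy was not tested. For Stfa2l1 the 4 levels, ordered alike, were 0.294, 0.711, 0 and 0.410 FPKM, at most about 4 fragments in any library. Its media could not be told apart at this depth, and it passed the filter in no comparison. The closest copy of Stfa2 in sequence therefore stayed near the detection limit in the library where Stfa2 stood at 494 FPKM.

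Cstb, the gene for the intracellular inhibitor cystatin B, was at 1034 FPKM in +N, at 456 in +ND, at 760 in +NF and at 495 in +NFD. It was the most abundant of the 7 genes in +N, +NF and +NFD, and Stfa2 was above it only in +ND. Cstb ranked 85th of all genes by FPKM in +N and 213th in +ND, while Stfa2 ranked 14002nd and 199th. The lower levels of Cstb were those of the 2 libraries with DBZ.

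Cst3, the gene for secreted cystatin C, was at 337 FPKM in +N, at 134 in +ND, at 360 in +NF and at 218 in +NFD. It too was lower in both libraries with DBZ, and lowest in +ND. Cst6, the gene for cystatin E/M, was at 3.90 FPKM in +N, at 1.34 in +ND, at 1.41 in +NF and at 0.895 in +NFD. Cst6 was the only one of Cstb, Cst3 and Cst6 whose +NF level was near its +ND level, and its level in each of these 3 media lay below +N. Its fragment numbers depend on which transcript is assumed, about 449 in +N for the transcript of 3951 nt but about 30 for that of 432 nt.

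**Figure D1:**
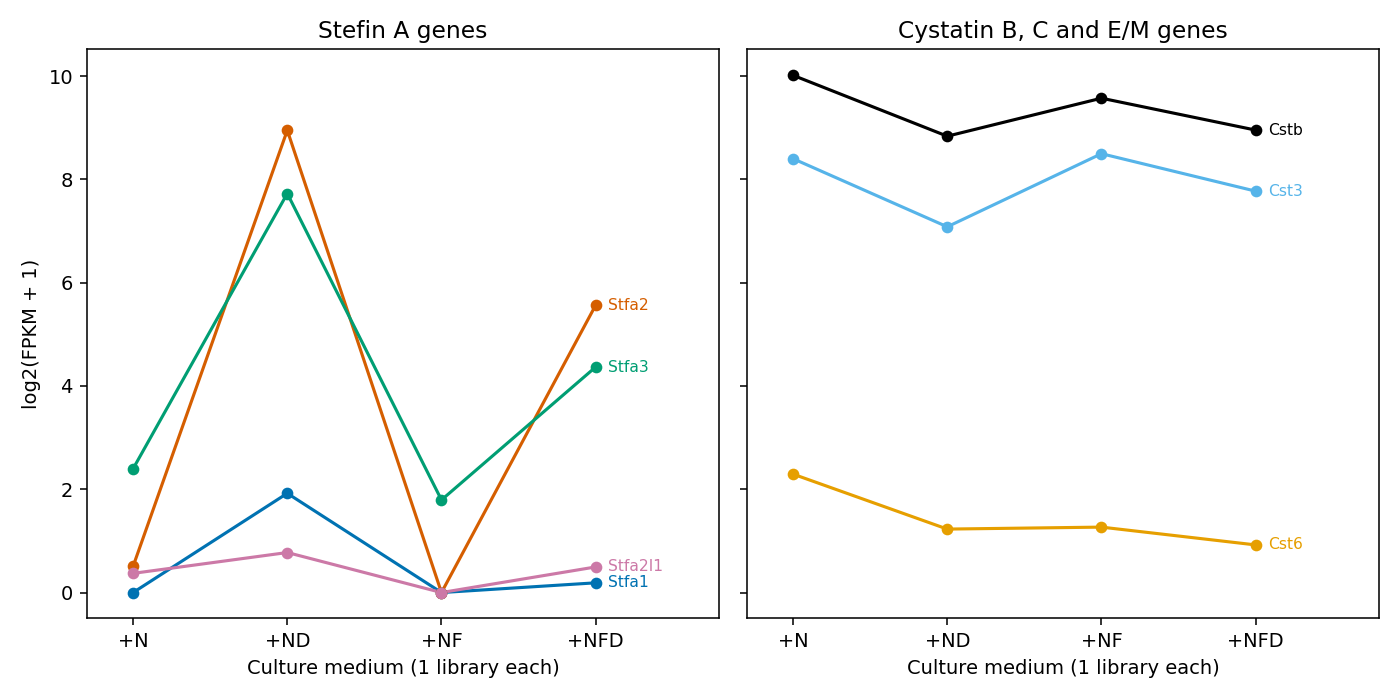
Level of each of the 7 genes as log2(FPKM + 1) on the y axis in the 4 media on the x axis, with stefin A genes on the left and Cstb, Cst3 and Cst6 on the right; each point is 1 library, lines join the libraries of a gene, and there are no error bars. Stfa2 and Stfa3 peak in +ND at 494 and 211 FPKM, whereas Cstb and Cst3 have their lowest points there, at 456 and 134 FPKM.

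In +ND relative to +N, which asks what Notch inhibition does without FGF10, the 4 stefin A genes summed to 708 FPKM against 4.98. Of the 7 genes, 6 passed this filter, with 3 higher and 3 lower by 2-fold or more. Of all 13173 genes compared, 5.88% were higher and 5.29% lower by that much, and nothing is read from this comparison because it was used to choose Stfa2. The log2 ratio was 8.44 for Stfa2, 5.33 for Stfa3 and 1.92 for Stfa1, and Stfa1 and Stfa2 passed only through +ND. With a pseudocount of 0.1 it was 9.89 for Stfa2 and 4.85 for Stfa1. Among 9920 genes with a transcript of at least 300 nt and 5 FPKM or more in +N or +ND, Stfa2 had the largest ratio, and the next gene was the late cornified envelope gene Lce1i at 7.59.

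Without the added constant, the FPKM ratio of Stfa2 in +ND to +N was 1170, with an interval of 424 to 3991 because +N held only about 4 fragments. The ratio of Stfa3 was 49.4 with an interval of 34.2 to 73.0, and Stfa1 was at least 13.1-fold higher than the level of 3 fragments in +N. On the lower side, the FPKM ratio was 0.441 for Cstb (interval 0.427 to 0.456), 0.399 for Cst3 (0.381 to 0.418) and 0.345 for Cst6. The Cst6 interval was 0.280 to 0.423 on its transcript of 3951 nt but 0.132 to 0.744, past the limit of 2-fold, on that of 432 nt. The log2 ratios of these 3 genes were -1.18, -1.32 and -1.06, so each lay close to the limit of 2-fold.

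The DBZ contrast in the presence of FGF10 was +NFD relative to +NF. The largest ratio for which Stfa2 was chosen is that of +ND over +N. The members were chosen with earlier results of these data known, so the values here are a description too. Of the 5 genes that passed the filter, 2 were higher and 0 lower by 2-fold or more, where 3.72% and 2.69% of all 13349 genes were. The 2 genes were Stfa2, with a log2 ratio of 5.56, and Stfa3, with 2.57. Stfa2 passed only through +NFD and so had to differ in that direction, whereas Stfa3 was above an FPKM of 1 in both libraries. Since Stfa2 was at 0 in +NF, its log2 ratio depends on the added constant and was 8.86 with a pseudocount of 0.1. Stfa2 was at least 136-fold higher than the level of 3 fragments in +NF, and Stfa3 was 7.97-fold higher, with an interval of 4.78 to 13.9. Stfa2 ranked 18th of 10004 genes in this ratio and Stfa3 ranked 73rd. Cstb, Cst3 and Cst6 were lower in +NFD by less than 2-fold, at log2 ratios of -0.62, -0.73 and -0.34. Of these, Cst6 passed only through +NF and so had to be lower. Its FPKM ratio was 0.636, with an interval of 0.493 to 0.816 on its longer transcript. On that of 432 nt the interval was 0.238 to 1.95, so counting error did not separate +NFD from +NF there.

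In +NF relative to +N, FGF10 was compared without DBZ. Of the 4 genes that passed, 0 were higher and 1, Cst6, was lower by 2-fold or more, against 2.76% and 2.44% of all 13090 genes. Cst6 lay at the limit, with a log2 ratio of -1.03. Cstb had a log2 ratio of -0.44 and Stfa3 one of -0.60, whereas Cst3 had one of 0.10, next to the median of 0.12 over all genes compared. Stfa2 and Stfa1 were under an FPKM of 1 in both libraries.

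The FGF10 contrast in the presence of DBZ was +NFD relative to +ND. Here 0 of the 6 genes that passed were higher and 3 lower by 2-fold or more, against 3.39% and 3.11% of all 13293 genes. The +ND library is the one in which Stfa2 was chosen for being high, so a lower level in +NFD is in part set by that choice and the values are a description. The lower genes were Stfa2 (log2 ratio -3.39), Stfa3 (-3.36) and Stfa1 (-1.73, or -4.32 without a pseudocount), which passed only through +ND. The FPKM ratio was 0.0938 for Stfa2, with an interval of 0.0850 to 0.104, and 0.0931 for Stfa3, inside that interval. Counting error alone did not separate the ratios of these 2 genes, and they ranked 9983rd and 9982nd of 9988 genes. Cst3 was higher in +NFD, at a log2 ratio of 0.69 and an FPKM ratio of 1.62 (interval 1.54 to 1.70). Cstb had a log2 ratio of 0.12 and an FPKM ratio of 1.09 (1.05 to 1.13). Cst6 had a log2 ratio of -0.31, but it passed only through +ND and so had to be lower. Its FPKM ratio was 0.666, with an interval of 0.508 to 0.871 on its longer transcript. On that of 432 nt the interval was 0.232 to 2.17, so counting error did not separate +NFD from +ND there.

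Both additions together were compared as +NFD relative to +N. Of the 5 genes that passed, 2 were higher and 2 lower by 2-fold or more, against 5.85% and 4.03% of all 13358 genes. Of these, Stfa2 passed only through +NFD and Cst6 only through +N, so each had to differ in its direction. Stfa2 had a log2 ratio of 5.06 and Stfa3 one of 1.97, and Stfa2 ranked 8th of 9952 genes. As FPKM ratios these were 110 for Stfa2 (interval 39.6 to 376) and 4.60 for Stfa3 (3.07 to 6.99). Cst6 and Cstb were the lower genes, at -1.37 (-2.12 without a pseudocount) and -1.06, and Cst3 had a log2 ratio of -0.63. These 5 comparisons share libraries with one another, so they are not independent readings of one effect.

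**Figure D2:**
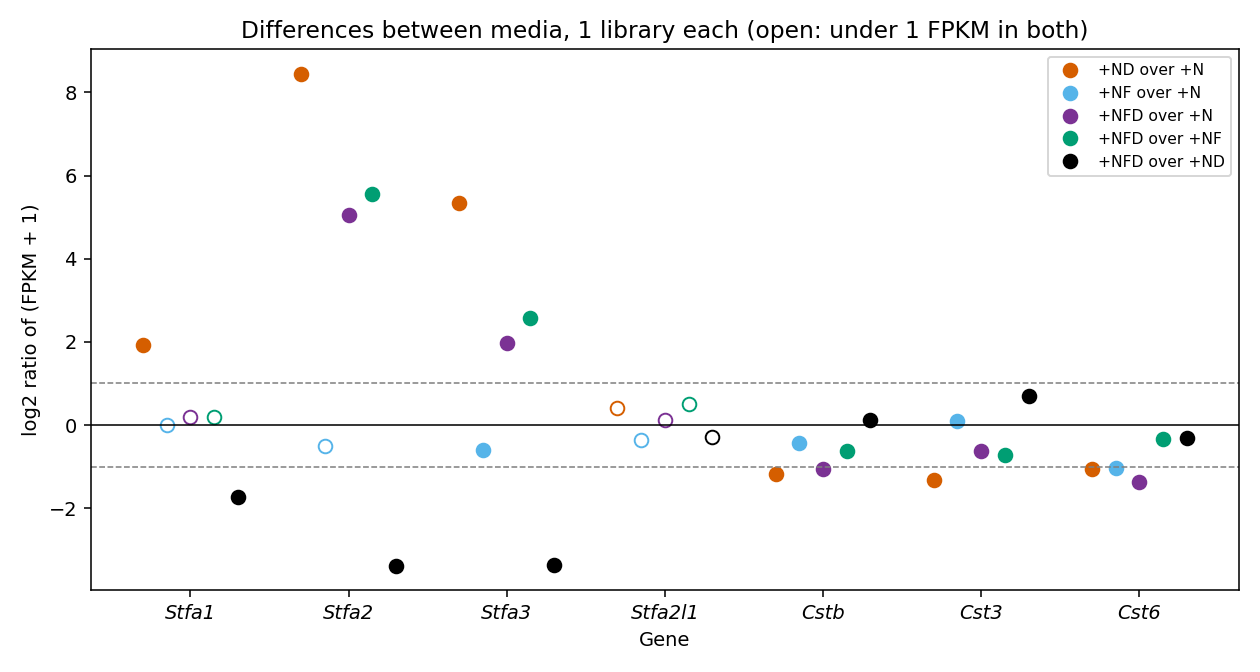
Log2 ratio of (FPKM + 1) on the y axis for each of the 7 genes on the x axis in 5 comparisons of media, given by colour, with 1 library per medium and no error bars; open points are genes under an FPKM of 1 in both libraries and dashed lines mark 2-fold. The +NFD over +NF points of Stfa2 (5.56, set in part by the added 1) and Stfa3 (2.57) lie above the upper line, while all points of Cstb, Cst3 and Cst6 lie between -1.37 and 0.69.

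The other loci of the cluster were examined to see how far the pattern of Stfa2 and Stfa3 extended. Csta1, a stefin A gene at the other end of the cluster, was at 47.2 FPKM in +N, at 164 in +ND, at 2.74 in +NF and at 31.2 in +NFD. For BC100530 the 4 levels, ordered alike, were 4.70, 227, 0 and 13.6 FPKM. Both were highest in +ND and lowest in +NF, and so was Stfa3, though its +NF and +N levels were not separated by counting error. The FPKM ratio of +NF to +N was 0.0581 for Csta1, with an interval of 0.0504 to 0.0664 on its transcript of 2783 nt. The +N level of BC100530 was at least 22.5-fold above the level of 3 fragments in +NF. Csta1 also differed from Stfa2 and Stfa3 in standing lower in +NFD than in +N, at a log2 ratio of -0.58.

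Among the lower loci, 2010005H15Rik was at 1.90, 31.9, 0.954 and 3.67 FPKM, BC117090 at 0.772, 12.4, 0 and 0.719, and Gm5416 at 0.323, 4.50, 0 and 0.842. Gm5483 was above 0 only in +N, at 0.150 FPKM, about 1 fragment, and Gm4758 was at 0 in every library. In +ND relative to +N, the comparison Stfa2 was chosen on, 8 of the 11 loci passed the filter, 4 of them only through +ND, and 8 were at least 2-fold higher, against 5.88% of all genes compared. Nothing is read from that count. With FGF10 present (+NFD relative to +NF), 5 of the 11 passed, 3 of them only through +NFD, and 5 were at least 2-fold higher, against 3.72% of all genes. Between +NFD and +ND, 8 passed, 3 of them only through +ND, and 8 were at least 2-fold lower, against 3.11% of all genes. A locus that passes only through its higher library had to differ, and several loci share windows of sequence, so the counts describe these loci and support nothing further.

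Genes just outside the cluster were taken by position. Fam162a was at 841 FPKM in +N, at 1714 in +ND, at 548 in +NF and at 1004 in +NFD, that is, log2 ratios of 1.03 for +ND over +N and 0.87 for +NFD over +NF. Ccdc58 stayed between 32.9 and 47.5 FPKM and Wdr5b between 0.853 and 1.76, and Casr was at 0 in 3 libraries and at 0.150 FPKM in +NFD. The order of Fam162a over the media was thus +ND, +NFD, +N and +NF, as for Stfa2 and Stfa3, but over a far narrower range.

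**Figure D3:**
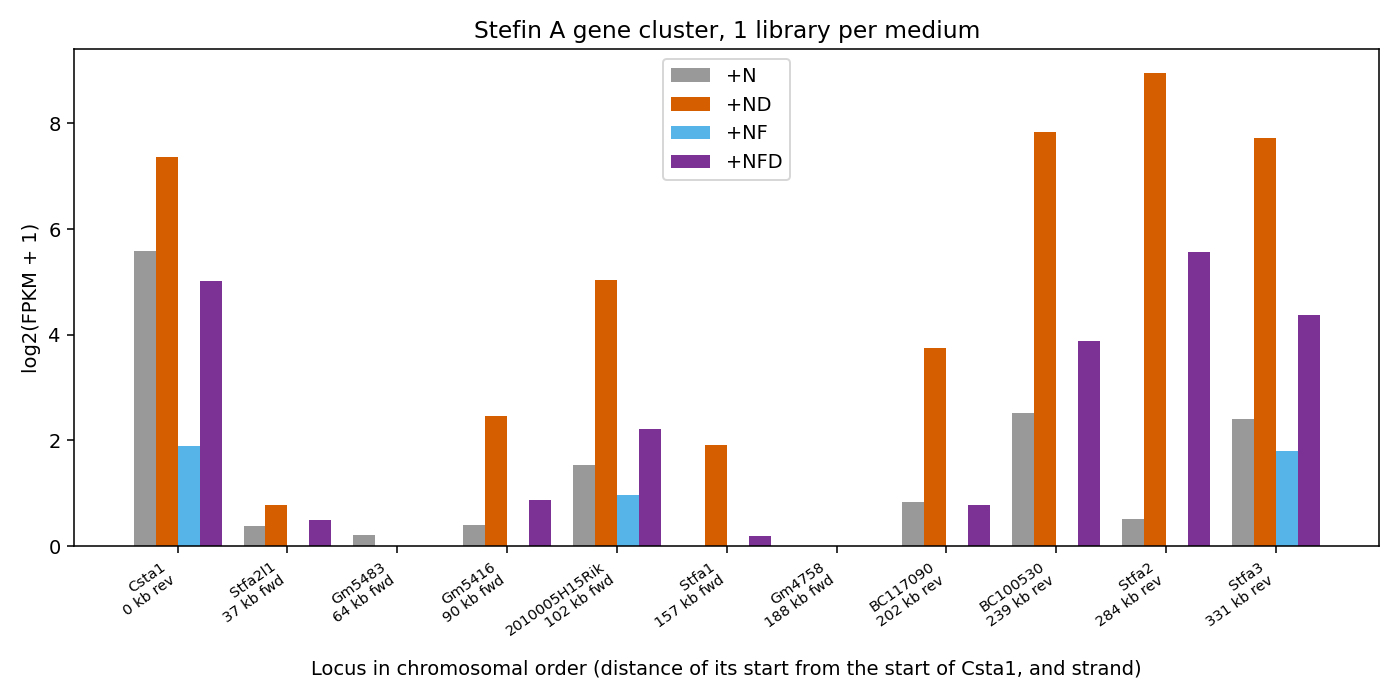
Level of the 11 stefin A loci as log2(FPKM + 1) on the y axis, ordered along chromosome 16 on the x axis with the distance from the start of Csta1 and the strand under each name; each bar is 1 library, coloured by medium, and there are no error bars. The +ND bars of Stfa2 and Stfa3 stand at 494 and 211 FPKM, and +ND is the library in which Stfa2 was chosen for being high. The bars of Stfa2l1, at most 0.711 FPKM, could not be told apart at this depth.

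The make-up of the inhibitor pool is given as a description, since Stfa2 was chosen on +ND over +N. Stfa2 alone was 28.4% of the +ND sum given next. The 11 stefin A loci, Cstb, Cst3 and Cst6 together summed to 1435 FPKM in +N, to 1740 in +ND, to 1128 in +NF and to 830 in +NFD. The stefin A loci were 4.18% of this sum in +N but 66.0% in +ND, and 0.546% in +NF but 14.0% in +NFD. Cstb was 72.1% in +N and 26.2% in +ND, and 67.4% and 59.6% in +NF and +NFD. Stefin A transcripts were thus the larger part of the pool in +ND and Cstb in the other 3 media. Beyond these genes, 20 other cystatin family genes of a list of 29 were in the table. Of these, 10 were at 0 in all 4 libraries, and of those outside the cluster Fetub, which encodes fetuin-B, was the highest at 16.6, 18.7, 5.94 and 8.09 FPKM.

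**Figure D4:**
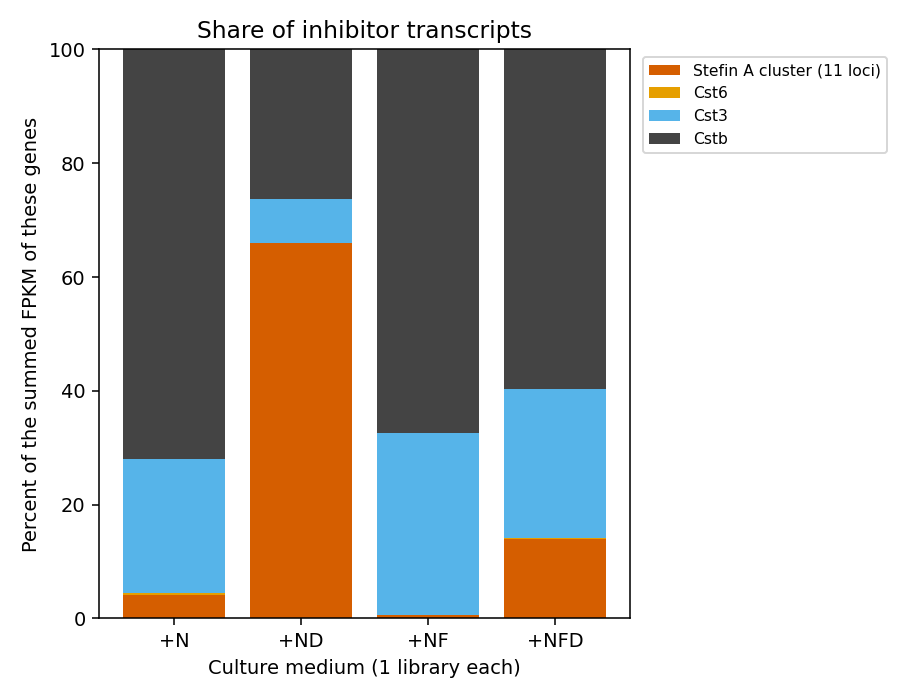
Share of the summed FPKM of the 11 stefin A loci, Cstb, Cst3 and Cst6 on the y axis, in percent, for each medium on the x axis, with 1 library per bar and no error bars. The stefin A part is 66.0% in +ND, 14.0% in +NFD, 4.18% in +N and 0.546% in +NF. Stfa2 was chosen on +ND over +N, so the shares are a description.

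The proteases that these inhibitors act on were given for the same libraries. The 11 cysteine protease genes of the list summed to 1535 FPKM in +N, to 917 in +ND, to 1549 in +NF and to 1024 in +NFD. Ctsl, which encodes cathepsin L, was the largest of them at 652, 375, 723 and 420 FPKM. Ctsh, which encodes cathepsin H, was at 254, 87.9, 280 and 177 FPKM, the same order of media as Cst3. In +ND relative to +N, 10 passed, and beyond 2-fold 0 were higher and 1, Ctsh at a log2 ratio of -1.52, was lower. Of all genes compared, 5.88% were higher and 5.29% lower by that much. In +NFD relative to +NF, 11 passed, with Ctsk at least 2-fold higher (1.04) and Ctsc (-1.05) and Ctsw (-1.04) at least 2-fold lower. Of all genes, 3.72% were higher and 2.69% lower by that much, and Ctsw passed only through +NF. Ctsk, which osteoclasts and fibroblasts also express, was at 2.29 FPKM in +NF and 5.77 in +NFD. The fibroblast markers were also highest in +NFD, and their part in this difference was not tested. Lgmn, which encodes legumain, stayed between 42.9 and 57.6 FPKM.

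**Figure D5:**
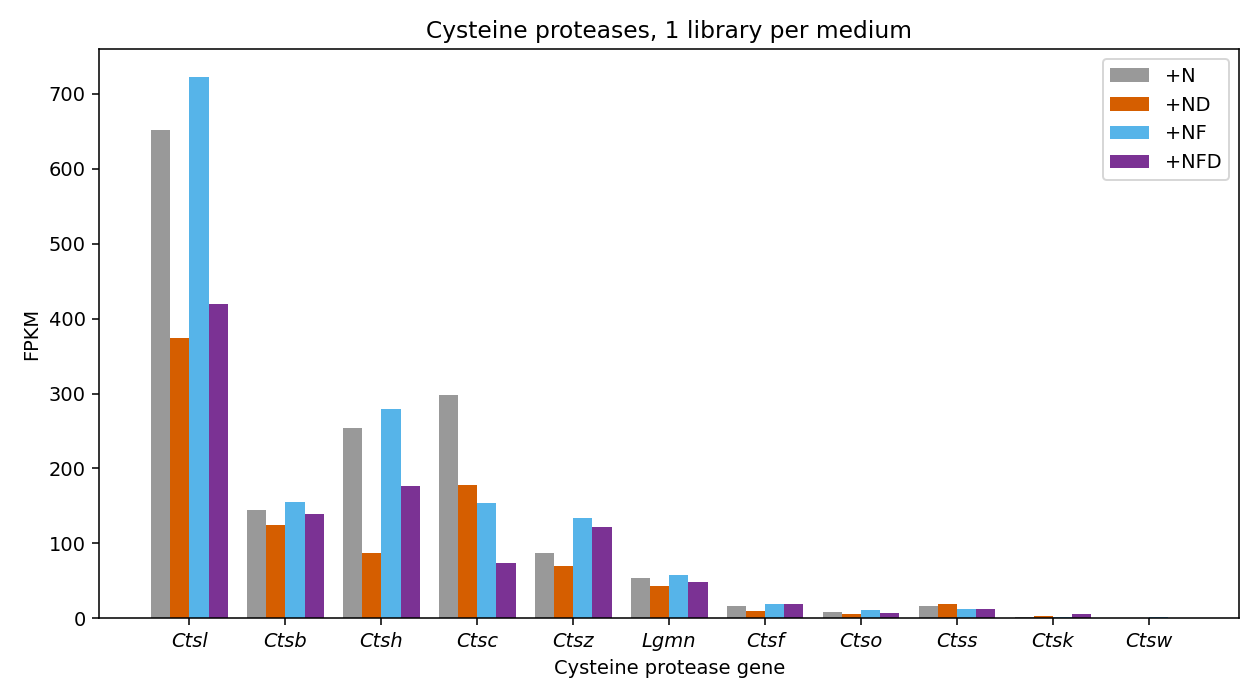
FPKM on the y axis of the 11 cysteine protease genes on the x axis in the 4 media, given by colour, with 1 library per bar and no error bars. Ctsl is the tallest in each medium, and its +ND and +NFD bars (375 and 420 FPKM) stand below those of +N and +NF (652 and 723 FPKM).

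Other protease inhibitors of stratified epithelium did not move as a block with stefin A. Of 24 such genes, 19 passed the filter in +ND relative to +N, with 4 higher and 3 lower by 2-fold or more. Of all genes compared, 5.88% were higher and 5.29% lower by that much. In +NFD relative to +NF, 17 passed, with 2 in each direction, where 3.72% and 2.69% of all genes were higher and lower. Both genes that were higher in +NFD than in +NF, Serpinb12 and Wfdc12, passed there only through +NFD, so they had to differ in that direction. Both were also higher in +ND than in +N. Serpinb12, an intracellular serpin, was at 8.63 FPKM in +N, at 86.9 in +ND, at 0.293 in +NF and at 8.70 in +NFD. Wfdc12 was at 0.149, 12.5, 0.0968 and 2.32 FPKM. By contrast Slpi, the gene for the secretory leukocyte protease inhibitor, was at 1965 FPKM in +N against 1356 in +ND and at 1635 in +NF against 1000.2 in +NFD, under 2-fold each time.

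Genes of cornification were taken from a list of 13. It holds genes for proteins of the cornified envelope but also others, such as Casp14, Asprv1 and Cdsn. In +ND relative to +N, 12 passed the filter, with 7 higher and 1, Evpl at a log2 ratio of -1.17, lower by 2-fold or more, at a median log2 ratio of 1.15, where 5.88% and 5.29% of all genes were higher and lower. For +NFD over +NF, 11 passed, with 6 higher and 0 lower, at a median of 1.03, where 3.72% and 2.69% of all genes were. Asprv1 and Cdsn were among the higher genes in both comparisons, and Casp14 in the first, where it passed only through +ND. Tgm3 passed only through +NFD in the second. Tgm3, which encodes a transglutaminase that cross-links the envelope, was at 2.24, 35.7, 0.103 and 3.62 FPKM. Lor, which encodes its main protein loricrin, was at 12.7, 220, 13.4 and 164 FPKM. Between +NFD and +ND, Tgm3 had a log2 ratio of -2.99 and Lor one of -0.42, next to -3.39 for Stfa2. Anxa1 and Tgm1 did not reach 2-fold in either comparison with DBZ.

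The genes whose pattern over the 4 libraries was nearest to that of each member were listed, with the root mean square difference in log2(FPKM + 1) after centring as the measure. For Stfa2 the 5 nearest of 10355 genes were Lce1e (0.75), Lce1f, Sprr2b, Lce1i and Lce1a1, all genes for proteins of the cornified envelope. Lce1e was at 0.811 FPKM in +N, at 187 in +ND, at 0 in +NF and at 65.7 in +NFD. Sprr2b was at 0.116, 128, 0 and 16.5 FPKM. Like Stfa2, both were near 0 without DBZ.

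For Cstb the nearest of 10466 genes was H2-Q2 (0.014), followed by Eps8, Cdh1, Apobr and Stat6. Cdh1, which encodes E-cadherin, was at 163, 68.0, 120 and 74.7 FPKM. For Cst3 the nearest were Mrip-ps, Unc13b, Gm16229, Msi1 and St6gal1, and for Cst6 they were Lypd3, Pcdh1, Gmppb, Clip4 and Gal3st4. Lypd3 was at 300.3 FPKM in +N, at 146 in +ND, at 142 in +NF and at 116 in +NFD. With 4 libraries, many genes come close to any pattern, so the lists describe likeness only.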

How the data were processed

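TruSeq libraries were sequenced by the authors on an Illumina HiSeq. Per the labels, FastQC 0.11.9 and Trim Galore 0.6.5 served for quality control, and TopHat 2.1.1 for alignment against GRCm38. Cufflinks then gave the abundances. The deposited unit is FPKM. The annotation release, the strand setting, read length and read totals are not given in the sources used here. Short transcripts rest on few fragments, and the treatment of fragments shared by copies was not stated.

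FPKM of entries with 1 symbol were summed (123 symbols, no member). Ratios used a pseudocount of 1 and a filter at an FPKM of 1 in the higher library, with a call at 2-fold. No test was made, with 1 library per medium. The FPKM of 1 fragment was the lowest step among single-transcript genes within 12% of a transcript's length. Positions and coding sequences came from GENCODE M21 (GRCm38), and promoters from RefSeq. Members, lists and motifs were chosen with earlier results of these data known. All members were named, list genes only if they reached an FPKM of 1 in a library, and the 5 nearest genes for Stfa2, Cstb, Cst3 and Cst6. Marker genes were named as checks, cluster and neighbouring loci by position, and Lce1i as the gene next to Stfa2 in the ratio it was chosen on. Alternatives were other pseudocounts, filters and scalings, centring and the highest entry per symbol. The computations were tested on simulated data. Python 3.11.15, numpy 2.4.6, pandas 2.3.3, scipy 1.17.1, Biopython 1.88 and matplotlib 3.10.9 were used.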

Additional observations from a re-analysis of the deposited data

Results flagged for a closer look

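Cstb was singled out because its 2 differences with FGF10 had opposite signs. The log2 ratio was -0.44 in +NF relative to +N, without DBZ, and 0.12 in +NFD relative to +ND, with DBZ. Neither reached 2-fold, each rests on 1 library per medium, and the difference between them was not tested.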

How the results depend on the processing

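The values were recomputed with a pseudocount of 0.1 or none, with no filter or one at 5 FPKM, with upper-quartile scaling, with centring on the median and with the highest entry per symbol. Of 172 values for single members, 162 moved by less than 1.5-fold and kept their side of 2-fold, and 10 moved further, all of them of Stfa1, Stfa2 or Cst6 with a smaller pseudocount or none. Of 115 counts and sums, 105 moved by 1.5-fold or less, the sums among them also keeping their side of 2-fold. The other 10 moved by more or, for a sum, crossed the limit of 2-fold. Of both kinds, 0 reversed. Without a pseudocount, the summed stefin A genes in +NF relative to +N went from -0.79 to -1.02 in log2 ratio, and 1 member, in place of 2, was at least 2-fold higher in +NFD than in +NF, since Stfa2 at 0 in +NF drops out. With the filter at an FPKM of 5, 0 members, in place of 1, were at least 2-fold lower in +NF than in +N, and 1, in place of 2, in +NFD than in +N, since Cst6 no longer passes. The same filter took the members higher in +ND than in +N, those lower in +ND than in +N and those lower in +NFD than in +ND from 3 to 2 each, and leaving out the pseudocount took the first of these to 2.

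Sums over other sets of loci were added after the data were seen. With all 11 loci of the cluster summed, the log2 ratio was 4.24 in place of 6.89 in +ND relative to +N, -3.09 in place of -0.79 in +NF relative to +N, and 0.95 in place of 3.50 in +NFD relative to +N, where Csta1 was the largest locus in +N. Without Stfa2, the ratio of the summed stefin A genes was 5.27 in +ND relative to +N, 1.93 in +NFD relative to +N, and 2.61 in place of 4.28 in +NFD relative to +NF. No paired analysis was possible because each group has 1 library, and no library could be left out for the same reason. Depth limits Stfa1 and Stfa2l1 most, since neither exceeded about 3 fragments in +N, +NF or +NFD.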
